A study of Mus musculus with 36 samples.

Results

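The 10 genes described here encode chaperones and proteases of the mitochondrion: Hspd1, Hspe1, Hspa9, Dnaja3, Grpel1, Trap1, Lonp1, Clpp, Clpx and Afg3l2. They were taken by gene symbol as members of this protein family, and all 10 were found among the 14761 genes of the table. RNA was sequenced from cell lines of mouse embryonic fibroblasts (MEFs), which were taken through adipogenic differentiation. The Mfn1-/- line was sampled at day -2, 0, +3 and +8 and set against WT libraries A to C of the same days, and the Mfn2-/- line was sampled at day -2 and +8 and set against WT libraries D to F. Each of these 12 groups holds 3 libraries, 36 in all, described by the submitters as independent biological replicates. Day -2 is the day of confluence. From day 0 every line, WT included, received rosiglitazone, IBMX, dexamethasone, insulin, biotin and D-pantothenic acid, with the IBMX and dexamethasone left out of the later feeds. Each genotype is represented by 1 line, so the deletion and other differences between lines cannot be told apart.

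Most mitochondrial proteins are made in the cytosol and threaded into the organelle unfolded. In the matrix they are met by mortalin (Hspa9), an Hsp70-type chaperone that works as part of the import motor and in folding, with a J-protein partner (Dnaja3) and a nucleotide exchange factor (Grpel1). Many are then folded inside the chaperonin chamber built from Hspd1 subunits and capped by Hspe1. Trap1 is the mitochondrial member of the Hsp90 family. Damaged or surplus proteins are degraded by Lonp1, by the ClpXP protease, in which Clpx unfolds the substrate and Clpp cuts it, and by the m-AAA protease of the inner membrane, of which Afg3l2 is a subunit. Several of these genes, Hspd1, Hspe1, Lonp1 and Clpp among them, are the usual readouts of the mitochondrial unfolded protein response in mammalian cells. Adipocytes enlarge their mitochondrial network as they mature.

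Hspd1 (ENSMUSG00000025980, chromosome 1, 55077835 to 55088243, minus strand of GRCm38) and Hspe1 (ENSMUSG00000073676, chromosome 1, 55088132 to 55091307, plus strand) stand head to head, and their first exons overlap. The overlap takes in 4.24% of the exonic length of Hspd1 and 7.6% of that of Hspe1. Promoter windows of RefSeq (GRCm38.p6, 250 bases before to 50 bases after a gene start) were available for 8 of the 10 genes, in 9 windows. The windows below belong to genes that rose together in the libraries labelled Mfn1-/- at day +8 and hold at least 1 of the motifs searched, which stand in capitals. This also holds for the windows of Hspd1, which are not printed here. Each is written 5′ to 3′ on the strand of its gene.
Hspe1, chr1:55087898-55088197, plus strand: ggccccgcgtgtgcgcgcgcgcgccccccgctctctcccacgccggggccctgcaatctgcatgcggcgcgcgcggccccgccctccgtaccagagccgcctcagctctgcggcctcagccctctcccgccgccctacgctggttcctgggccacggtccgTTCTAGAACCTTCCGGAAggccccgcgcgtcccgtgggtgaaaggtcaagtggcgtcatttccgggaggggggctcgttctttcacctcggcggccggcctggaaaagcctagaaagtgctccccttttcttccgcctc
Dnaja3, chr16:4683820-4684119, plus strand: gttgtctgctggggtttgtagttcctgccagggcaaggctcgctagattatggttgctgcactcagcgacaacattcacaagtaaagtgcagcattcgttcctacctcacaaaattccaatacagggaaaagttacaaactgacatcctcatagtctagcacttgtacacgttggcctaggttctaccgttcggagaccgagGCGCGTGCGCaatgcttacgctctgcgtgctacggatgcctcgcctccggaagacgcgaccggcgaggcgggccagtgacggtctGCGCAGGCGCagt
Trap1, chr16:4077761-4078060, minus strand: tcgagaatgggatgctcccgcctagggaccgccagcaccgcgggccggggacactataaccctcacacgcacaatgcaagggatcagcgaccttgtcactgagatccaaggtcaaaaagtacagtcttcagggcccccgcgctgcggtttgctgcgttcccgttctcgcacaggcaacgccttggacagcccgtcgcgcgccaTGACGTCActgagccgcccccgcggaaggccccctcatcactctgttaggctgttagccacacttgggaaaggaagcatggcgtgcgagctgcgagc
Lonp1, chr17:56626854-56627153, minus strand: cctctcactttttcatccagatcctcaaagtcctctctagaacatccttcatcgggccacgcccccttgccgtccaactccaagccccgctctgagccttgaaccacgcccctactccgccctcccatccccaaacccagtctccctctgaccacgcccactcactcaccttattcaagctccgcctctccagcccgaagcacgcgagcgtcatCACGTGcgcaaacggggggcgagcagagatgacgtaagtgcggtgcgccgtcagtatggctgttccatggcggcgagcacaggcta

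The capitals in the Hspe1 window are a pair of overlapping heat shock elements (TTCNNGAANNTTC or its reverse complement), and the same stretch read from the other strand lies in 1 of the 2 windows of Hspd1. This motif was found in 0.603% of the 32851 mouse windows. The capitals in the Dnaja3 window are 2 matches to the NRF1 motif (GCGCANGCGC), which a second window of Hspd1 also holds and which 4.6% of all windows hold. The Trap1 window holds a cyclic AMP response element (TGACGTCA), present in 1.79% of all windows. The Lonp1 window holds an E-box (CACGTG), also found in Hspd1 and in 7.15% of all windows. The fifth motif, TGATGNAA, which ATF4 binds with a partner, was found in none of the 9 windows and in 3.97% of all windows. Both strands were searched for each motif, and a match is a description of the letters only. The Dnaja3 window lies at the RefSeq start, which is inside the longer gene model given below.

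The positions of 6 further genes on GRCm38 are as follows. Dnaja3 (ENSMUSG00000004069, chromosome 16, 4639989 to 4707695) and Trap1 (ENSMUSG00000005981, chromosome 16, 4039971 to 4077827) lie on 1 chromosome, as do Lonp1 (ENSMUSG00000041168, chromosome 17, 56614297 to 56626887) and Clpp (ENSMUSG00000002660, chromosome 17, 56990305 to 56996188). Grpel1 (ENSMUSG00000029198, chromosome 5, 36464998 to 36474080) and Clpx (ENSMUSG00000015357, chromosome 9, 65294260 to 65330658) stand apart from the others. Exons of an opposite-strand gene overlap 11.7% of the exonic length of Grpel1 (Tada2b), 3.91% of Dnaja3 (Coro7) and 2.1% of Trap1 (Dnase1), and reads in these stretches cannot be assigned to 1 strand. Copies named after Hspd1 (5 loci), Hspe1 (6 loci) and Hspa9 (1 locus) are annotated elsewhere, and reads shared with a copy can be misassigned.

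Total reads ran from 8800674 to 37011894 per library, with a median of 12641490. The RNA of the targeted gene was read first. Mfn1 stood at 165, 163 and 188 normalised counts in Mfn1-/- MEFs at day -2, against 1279, 1457 and 1291 in WT, and at 24.3% and 18.8% of the WT mean at day 0 and +3. At day +8 it stood at 1152, 754 and 647 in the libraries labelled Mfn1-/-, against 841, 819.9 and 919 in WT (log2 fold change -0.06, SE 0.14, adjusted p = 0.745 from limma), so the targeted RNA does not tell these 3 libraries from WT and they are named by their label below. Mfn2 was at 24.0% of WT in Mfn2-/- MEFs at day -2 and at 25.4% at day +8. Of the fibroblast markers listed, 7 of 8 were in the table and none was at 0 in any group. In Mfn2-/- MEFs 4 of the 7 were lower at day -2 and 4 at day +8, with lowest log2 fold changes of -9.03 and -9.04. In the libraries labelled Mfn1-/- at day +8, 4 were lower. The fibroblast markers summed to 86750 to 92902 in Mfn2-/- MEFs at day -2, against 199496 to 217249 in WT. Summed adipocyte markers (Fabp4, Lpl and Pparg, 3 of the 8 listed) ran from 160171 to 182091 in the libraries labelled Mfn1-/- at day +8, against 10738 to 13948 in WT, and from 1359 to 1498 in Mfn2-/- MEFs at day +8, against 20147 to 40396 in WT. Adipocyte marker sums were above WT in Mfn1-/- MEFs at the earlier days too (2564 to 5898, against 260.5 to 354 in WT at day -2). Of the 3 markers, 2 were higher at each of these days. The other was below WT at day -2 without passing (log2 fold change -1.10), and 1 was lower at day 0 (-1.35). Fabp4 and Pparg were at 0 in Mfn2-/- MEFs at day -2. The sum there, all of it Lpl, was 1268 to 1478, against 158 to 172 in WT. The fibroblast markers summed to 147652 to 249433 in the libraries labelled Mfn1-/- at day +8, against 295639 to 539414 in WT, and to 78319 to 84382 in Mfn2-/- MEFs at day +8, against 289607 to 327158 in WT. Mesothelial markers (6 genes) summed to 32533 to 36342 in Mfn2-/- MEFs at day -2, against 1309.8 to 1370.3 in WT, and to 14372 to 14819 at day +8, against 254 to 343 in WT. Kdr, the 1 of 4 endothelial markers in the table, ran from 681 to 689.6 in Mfn2-/- MEFs at day -2, against 0 to 2.92 in WT, and epithelial markers (3 of 4 in the table) summed to 439.9 to 492, against 26.3 to 38.9 in WT. In Mfn1-/- MEFs at day -2 and 0, 5 of the 6 mesothelial markers were higher and Msln was lower, with sums of 2358 to 3999.8 at day -2, against 2827 to 4600.4 in WT. At day +3 and +8, 4 of the 6 were higher, and at day +8 1 was lower (log2 fold change -2.21). Epithelial markers summed to 294 to 737 in Mfn1-/- MEFs at day -2, against 19.9 to 45.7 in WT. The part of these marker differences in the results below was not tested.

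Levels differed widely within the family. Per kilobase of exon, Hspa9 stood highest in WT libraries A to C at day -2 (4819 ± 599.7 normalised counts per kilobase, mean ± SD, n = 3), followed by Hspd1 (2292 ± 355). Hspe1 (1034 ± 144), Lonp1 (907 ± 132) and Trap1 (881 ± 135) came next and overlapped one another. Clpp (657 ± 81.4) was followed by Grpel1 (332 ± 32.4), Dnaja3 (281 ± 10.1), Clpx (227 ± 9.53) and Afg3l2 (165 ± 13.5), whose ranges did not overlap. The order was the same in WT libraries D to F except that Trap1 stood above Lonp1. Clpp and Clpx, the 2 parts of ClpXP, were read at about the same count, and Clpp stood higher per kilobase, having the shorter exons. The plot of all libraries shows the values as normalised counts, meaning read counts divided by 1 scaling factor per library, which were scaled in blocks of 6 libraries (a knockout line and its WT at 1 day).

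**Figure D1:**
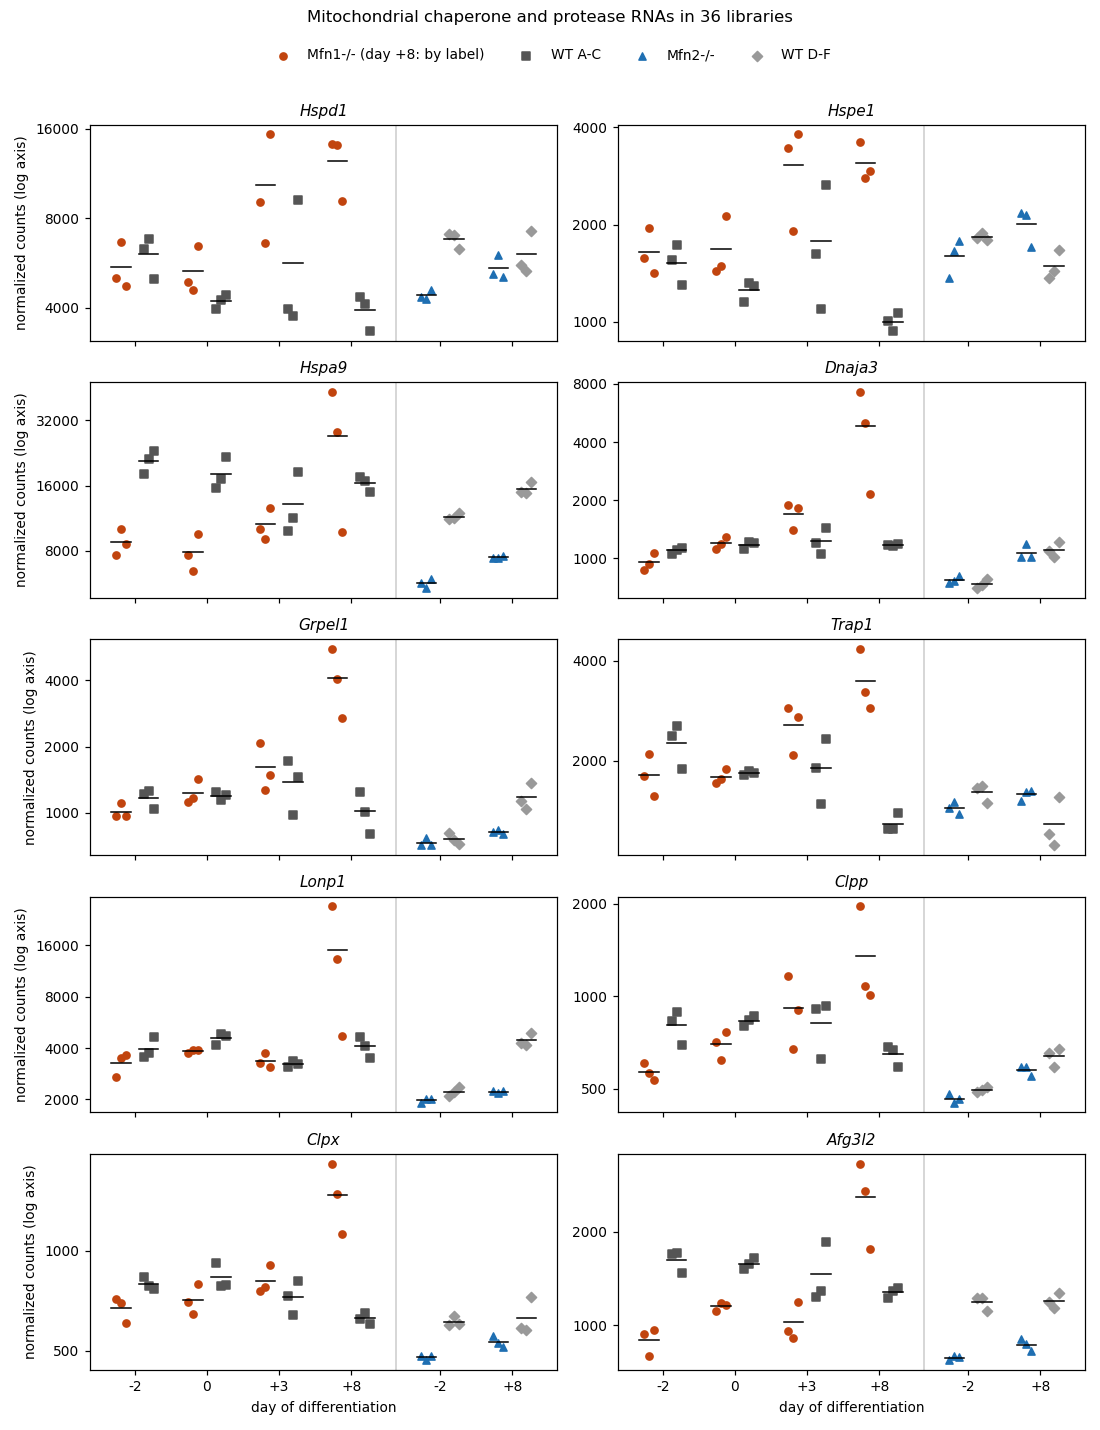
Normalised counts (log axis) of the 10 genes in all 36 libraries by day of differentiation; points are libraries, bars are group means of 3, and each knockout line stands left of its WT. For 9 of the 10 genes the 3 libraries labelled Mfn1-/- at day +8 lie above their WT, whereas Hspa9 overlaps. The share of all genes without overlap was not counted, so this count has no background. Levels are comparable between a knockout and its WT, not across days.

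Before differentiation, Hspa9 and Afg3l2 were lower than WT in both knockout lines and the other 8 genes did not pass the test. Hspa9 (ENSMUSG00000024359, chromosome 18, 34937414 to 34954357), the mortalin gene, stood at 7691, 10126 and 8568 normalised counts in Mfn1-/- MEFs at day -2, against 18003, 21187 and 23122 in WT (log2 fold change -1.24, SE 0.29, adjusted p = 0.00129; limma with Benjamini-Hochberg adjustment over 14293 genes, as for all adjusted p below). The groups did not overlap, and the Mfn1-/- mean was 42.3% of the WT mean. Afg3l2 (ENSMUSG00000024527, chromosome 18, 67404764 to 67449172) stood at 933, 798 and 961 in Mfn1-/- MEFs, against 1691, 1713 and 1472 in WT (log2 fold change -0.86, SE 0.15, adjusted p = 3.97e-05), again without overlap. None of the 10 genes was higher, where 12.5% of all genes were, and 2 were lower, where 9.98% of all genes were. The median log2 fold change was -0.26 over the 10 genes and -0.02 over all genes tested. Clpp, at 608, 561 and 533 in Mfn1-/- MEFs and 831, 887 and 694 in WT, and Clpx also did not overlap but missed the threshold (adjusted p = 0.0316 and 0.146). DESeq2 also called Clpp lower (adjusted p = 0.00328).

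Among the Mfn2-/- libraries at day -2, Hspa9 stood at 5725, 5403 and 5933 normalised counts, against 11227, 11289.5 and 11938 in WT (log2 fold change -1.01, SE 0.29, adjusted p = 0.00479). Afg3l2 stood at 772, 793 and 791 in Mfn2-/- MEFs, against 1220.2, 1226 and 1113 in WT (log2 fold change -0.59, SE 0.15, adjusted p = 0.00162). Neither gene overlapped between the groups. The mean of Hspa9 was 49.5% of that of WT. The count was again 0 higher (all genes, 16.4%) and 2 lower (all genes, 19.1%), with a median log2 fold change of -0.18 against -0.02 over all genes. Hspd1 read 4356, 4286 and 4586 in Mfn2-/- MEFs and 7081, 7012 and 6301 in WT, without overlap, but did not pass (adjusted p = 0.0458). The spread in these tests is pooled over all 12 groups. Fitted on the 6 libraries of the comparison alone, 5 of the 10 genes passed, all lower (Hspd1, Hspa9, Lonp1, Clpx and Afg3l2), where 31.6% of all genes were lower. With the pooled spread, the call on Hspa9 was lost whichever of the 6 libraries was left out (adjusted p up to 0.0184).

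The knockout effects of the 2 lines at day -2 were not shown to differ for any of the 10 genes. The Mfn1-/- effect minus the Mfn2-/- effect passed for 0 of them, where 20.9% of all genes passed in limma, 0 had an unadjusted p under 0.05 and edgeR called 0. The difference was -0.23 (95% interval -1.07 to 0.61, log2) for Hspa9 and -0.26 (-0.70 to 0.17) for Afg3l2. Both intervals include differences in either direction.

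At day 0, when the differentiation mixture is first given, Hspa9 was the 1 gene of the 10 that differed between Mfn1-/- MEFs and WT. It stood at 7673, 6451 and 9571 normalised counts in Mfn1-/- MEFs, against 15618, 17211 and 21560.3 in WT (log2 fold change -1.20, SE 0.29, adjusted p = 0.00175). The groups did not overlap. This call was lost without WT library C (adjusted p = 0.0143) or without Mfn1-/- library B (adjusted p = 0.0151). Afg3l2 read 1111, 1179.9 and 1158 in Mfn1-/- MEFs and 1523, 1571 and 1644 in WT and missed the threshold (log2 fold change -0.46, adjusted p = 0.0196), while DESeq2 called it (adjusted p = 7.11e-05). Across the 10 genes 0 were higher (10.7% of all genes) and 1 was lower (10.8% of all genes), and the median log2 fold change was -0.13, against -0.01 over all genes. Lonp1, at 3759.6, 3904 and 3892 in Mfn1-/- MEFs and 4182, 4810.5 and 4707 in WT, and Clpp, at 707, 621 and 765 in Mfn1-/- MEFs and 797, 838 and 865 in WT, stood below every WT library but did not pass (adjusted p = 0.58 and 0.288). Hspd1 and Hspe1 stood above every WT library but did not pass either, with log2 fold changes of 0.32 (adjusted p = 0.372) and 0.41 (adjusted p = 0.176).

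At day +3 the chaperonin pair was higher in Mfn1-/- MEFs than in WT, and Hspa9 no longer passed. Hspd1, whose product forms the folding chamber, stood at 9090.5, 6585 and 15279.7 normalised counts in Mfn1-/- libraries A, B and C, against 3965, 3760.1 and 9224 in WT (log2 fold change 0.91, SE 0.25, adjusted p = 0.00626). Hspe1, its lid, stood at 3444, 1907 and 3804 in Mfn1-/- MEFs, against 1616, 1091 and 2643 in WT (log2 fold change 0.81, SE 0.22, adjusted p = 0.00583). The groups overlapped for both genes: WT library C was above Mfn1-/- library B, and within each letter the Mfn1-/- library was the higher one. The labels do not say that libraries of 1 letter belong together, but at day +3 they deviated together from their group means (r = 0.304, 0.423 and 0.538). With the letter as a block within the day (a fit added after the data were seen) the adjusted p was 3.52e-05 for Hspd1 and 4.73e-05 for Hspe1. The block also brought Trap1 past the threshold as higher (log2 fold change 0.44, adjusted p = 0.00865, against 0.0295 without the block) and Afg3l2 as lower (-0.50, adjusted p = 0.00253, against 0.0107). Without the block, 2 of the 10 genes were higher (10.6% of all genes) and 0 lower (10.8% of all genes), with a median log2 fold change of 0.19 against -0.001 over all genes.

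The day +3 calls rest on few libraries. Hspd1 lost its call without Mfn1-/- library A (adjusted p = 0.0134) or C (0.0785, log2 fold change 0.58) and without WT library A (0.0489) or B (0.0629). Hspe1 lost its call without the same libraries, and its log2 fold change was 0.50 without WT library B (adjusted p = 0.0912). Fitted on these 6 libraries alone, 0 of the 10 genes passed, where 2.93% of all genes were higher (adjusted p = 0.207 for Hspd1 and 0.208 for Hspe1). With no block, DESeq2 called 0 of the 10 genes and edgeR called Hspe1 higher and Afg3l2 lower. Hspa9 read 10061, 9102 and 12657 in Mfn1-/- MEFs and 9831, 11388 and 18449.8 in WT, which overlap (log2 fold change -0.28, adjusted p = 0.505). Afg3l2 passed as lower without WT library A or B or Mfn1-/- library C, and Trap1 as higher without WT library C or Mfn1-/- library B. Dnaja3, Grpel1, Lonp1, Clpp and Clpx lay between 0.07 (Lonp1) and 0.47 (Dnaja3) on the log2 scale.

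**Figure D2:**
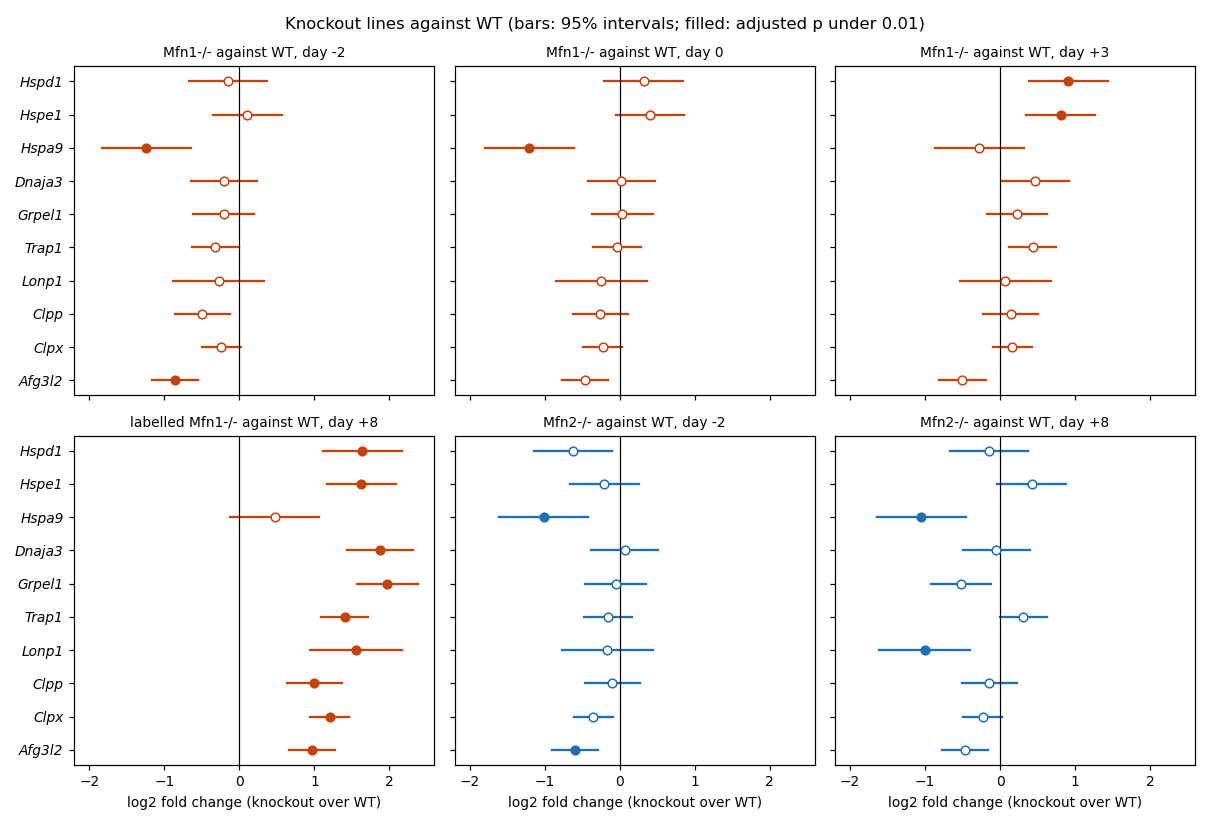
Log2 fold changes of the 10 genes in each knockout line against its WT (points, with 95% intervals from limma), with filled points where the adjusted p is under 0.01. Hspa9 is filled below 0 in 4 of the 6 comparisons, and 9 genes are filled above 0 in the libraries labelled Mfn1-/- at day +8.

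At day +8, 9 of the 10 genes were higher in the libraries labelled Mfn1-/- than in WT, where 23.5% of all genes were higher. None was lower, where 26.7% of all genes were. The median log2 fold change was 1.48 over the 10 genes and -0.07 over all genes tested. edgeR and DESeq2 on the recovered reads also called 9, and 9 or 10 passed whichever single library was left out. Fitted on these 6 libraries alone, 8 passed as higher, where 16.1% of all genes did. The adipocyte marker sums given above differ in the same direction between these groups. In bulk RNA, more cells of a type and more RNA per cell cannot be told apart.

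Of the folding genes, Hspd1 stood at 14237, 14086 and 9138 normalised counts in the libraries A, B and C labelled Mfn1-/-, against 4346, 4136 and 3356 in WT (log2 fold change 1.64, SE 0.25, adjusted p = 2.45e-06). Hspe1 stood at 3594, 2793 and 2924, against 1004, 937 and 1061 in WT (log2 fold change 1.62, SE 0.22, adjusted p = 3.25e-07). The chaperonin and its lid were thus at 3.16 and 3.1 times the WT mean and above every WT library. Trap1, the Hsp90-type chaperone, stood at 4331, 3214 and 2870.2 in the libraries labelled Mfn1-/-, against 1243, 1245 and 1386 in WT (log2 fold change 1.41, SE 0.15, adjusted p = 4.73e-09).

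With all libraries the log2 fold change was highest for the 2 mortalin cofactors and lowest for mortalin itself. Without library A the value for Dnaja3 was 1.49, below those of Hspd1 (1.53) and Hspe1 (1.51). Grpel1, the nucleotide exchange factor, stood at 5556, 4077 and 2694 normalised counts in the libraries labelled Mfn1-/-, against 1240, 1008 and 804 in WT (log2 fold change 1.97, SE 0.20, adjusted p = 7.69e-10). Dnaja3, the J-protein, stood at 7283, 5034 and 2167 in those libraries, against 1179, 1157 and 1181 in WT (log2 fold change 1.87, SE 0.22, adjusted p = 1.51e-08). Both were above every WT library, the mean of the libraries labelled Mfn1-/- being 4.04 and 4.12 times that of WT. Hspa9 stood at 43190.4, 28298 and 9778 in the libraries labelled Mfn1-/-, against 17603, 16873 and 15001 in WT, and did not pass (log2 fold change 0.47, 95% interval -0.12 to 1.07, adjusted p = 0.157). Libraries A and B lay above all WT libraries and library C below them. Without library C it passed (log2 fold change 1.09, adjusted p = 3.05e-05).

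The protease genes were also higher. Lonp1, the matrix AAA+ protease, stood at 27107, 13383 and 4687 normalised counts in the libraries labelled Mfn1-/-, against 4659, 4131 and 3477 in WT (log2 fold change 1.56, SE 0.30, adjusted p = 5.10e-05). Library C was just above the highest WT library, and the log2 fold change was 2.23 without library C and 0.96 without library A. Fitted on these 6 libraries alone, Lonp1 did not pass (adjusted p = 0.0352). Clpx, the unfoldase, stood at 1821, 1475 and 1121 in the libraries labelled Mfn1-/-, against 625, 649 and 603 in WT (log2 fold change 1.21, SE 0.13, adjusted p = 2.49e-09), and Clpp, the peptidase it feeds, at 1963, 1084 and 1012, against 684, 668 and 589 (log2 fold change 0.998, SE 0.18, adjusted p = 1.88e-05). Afg3l2 stood at 3319.9, 2703 and 1757, against 1224, 1291 and 1318 in WT (log2 fold change 0.97, SE 0.15, adjusted p = 2.09e-06). At day -2 it was lower than WT in Mfn1-/- MEFs.

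The 3 libraries labelled Mfn1-/- at day +8 differed among themselves. For 9 of the 10 genes (all but Hspe1) the level fell in the order A, B, C, as it did for 22.5% of all genes tested. Library A held 5.78 times the Lonp1 level of library C, 4.42 times its Hspa9 level and 3.36 times its Dnaja3 level. The median ratio of A to C was 1.91 over the 10 genes and 0.998 over all genes tested. It was 1.87 over 15 genes of mitochondrial content (genes of import channels, porins, the respiratory chain, ATP synthase and matrix enzymes, and Tfam), where 14 followed the same order. The 3 adipocyte markers had ratios of 0.817 to 1.34. The median was 3.39 over 11 genes of stress signalling, of which 9 followed the order A, B, C, 1.55 over 14 ER chaperones, 1.41 over 26 other mitochondrial chaperones and proteases and 0.996 over 20 cytosolic chaperones. The 7 fibroblast markers were lower in library A than in library C, with ratios of 0.234 to 0.752 (median 0.587). Hspe1 had the smallest gap between libraries A and C of the 10 genes (1.23).

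**Figure D3:**
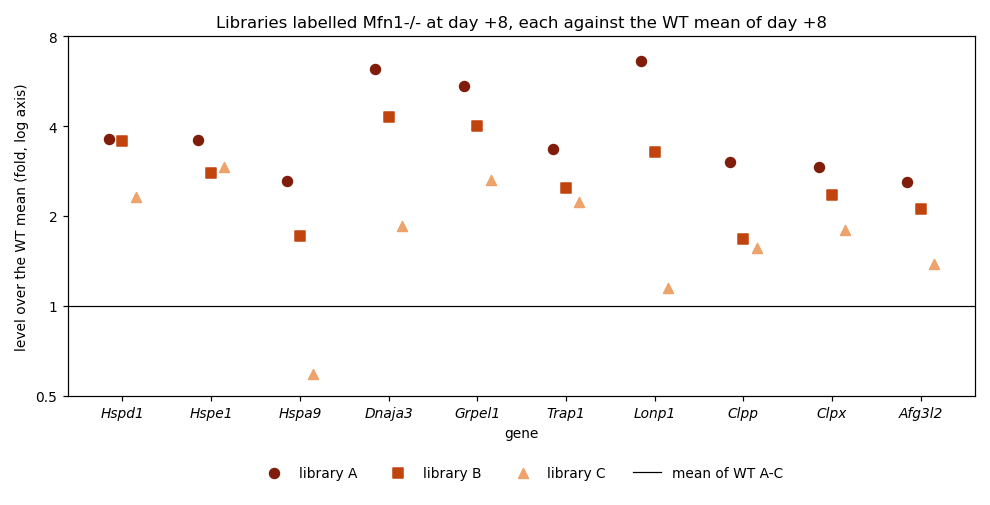
Level of each of the 10 genes in each library labelled Mfn1-/- at day +8, as a fold of the WT mean of day +8 (log axis; the line at 1 is the WT mean). Library A is the highest for all 10 genes and library C the lowest for 9; library C lies below the WT mean for Hspa9 only.

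At day +8, Hspa9 and Lonp1 were lower in Mfn2-/- MEFs than in WT, and in limma and edgeR none of the 10 genes was higher. Hspa9 stood at 7394, 7453 and 7567 normalised counts in Mfn2-/- MEFs, against 14914, 14827 and 16673 in WT (log2 fold change -1.05, SE 0.29, adjusted p = 0.00345). Lonp1 stood at 2255, 2168 and 2235, against 4307, 4143 and 4923 in WT (log2 fold change -1.002, SE 0.30, adjusted p = 0.00601). Neither gene overlapped between the groups, and the Mfn2-/- mean was 48.3% of the WT mean for Hspa9 and 49.8% for Lonp1. Across the 10 genes, 0 were higher (17.1% of all genes) and 2 lower (21.0% of all genes), with a median log2 fold change of -0.19 against -0.03 over all genes.

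Afg3l2 read 899, 870.5 and 825 in Mfn2-/- MEFs at day +8 and 1184, 1136 and 1273 in WT, without overlap, and just missed the threshold (log2 fold change -0.47, adjusted p = 0.0106). Grpel1 read 819, 831 and 803 in Mfn2-/- MEFs and 1129, 1045 and 1361 in WT (log2 fold change -0.52, adjusted p = 0.0295), while Hspe1 read 2167, 2139 and 1705 in Mfn2-/- MEFs, against 1368, 1438 and 1667 in WT (log2 fold change 0.42, adjusted p = 0.119). None of these 3 genes overlapped between the groups. With the spread of these 6 libraries alone, 5 genes passed: Hspa9, Grpel1, Lonp1 and Afg3l2 lower, where 30.1% of all genes were, and Hspe1 higher, where 28.4% of all genes were. DESeq2 also called Hspe1 higher (adjusted p = 1.09e-04) and Grpel1 and Afg3l2 lower. Set against all 6 WT libraries of the day, Hspe1 (log2 fold change 0.91, adjusted p = 0.00223) and Trap1 (0.50, adjusted p = 0.00383) passed as higher and Lonp1 lost its call (-0.74, adjusted p = 0.0185). With the pooled spread, both calls were lost when WT library F or any 1 Mfn2-/- library was left out, and the call on Lonp1 also without WT library D or E (adjusted p for Hspa9 up to 0.0153 and for Lonp1 up to 0.0261).

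The differences from WT at day +8 were not the same in the 2 lines for any of the 10 genes, each being higher in the libraries labelled Mfn1-/-, where 18.9% of all genes differed in this direction. The difference was largest for Lonp1 (2.56, SE 0.42, log2, adjusted p = 1.06e-05) and Grpel1 (2.49, SE 0.28, adjusted p = 1.14e-08) and smallest for Trap1 (1.10, SE 0.22, adjusted p = 1.14e-04). For Hspa9 it was 1.52 (SE 0.41, adjusted p = 0.00287). The value for Lonp1 was 1.97 without library A and 3.23 without library C, and that for Hspa9 was 2.14 without library C. The call on Hspa9 was lost without library A labelled Mfn1-/- (adjusted p = 0.0148) or without library B (0.0105), and in a fit on these 12 libraries alone (0.0276).

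The difference from WT was higher in the libraries labelled Mfn1-/- at day +8 than in Mfn1-/- MEFs at day -2 for all 10 genes, where this held for 12.0% of all genes. The change ran from 1.45 (Clpx) to 2.18 (Grpel1) on the log2 scale. For Hspa9 (1.72) the group means stood below WT at day -2, and for Afg3l2 (1.83) the sign of the difference from WT changed. Without library C labelled Mfn1-/- at day +8 the change was 2.33 for Hspa9 and 2.51 for Lonp1, and without library A it was 1.24 for Lonp1 (1.83 with all libraries). Fitted on these 12 libraries alone, 8 genes passed (8.14% of all genes were higher), the calls on Hspa9 (adjusted p = 0.0333) and Lonp1 (0.0442) being lost. The Mfn2-/- effect was not shown to change between day -2 and day +8: 0 of the 10 genes passed, where 15.5% of all genes did in limma, 1 (Trap1) had an unadjusted p under 0.05 and edgeR called 0. The 2 largest such changes were -0.84 for Lonp1 (95% interval -1.70 to 0.02) and 0.63 for Hspe1 (-0.02 to 1.27). Fitted on their own 12 libraries, 5 of these changes passed, with Hspd1, Hspe1 and Trap1 higher (20.7% of all genes were) and Grpel1 and Lonp1 lower (20.0% of all genes were). These 3 differences share libraries with one another and with the comparisons above.

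**Figure D4:**
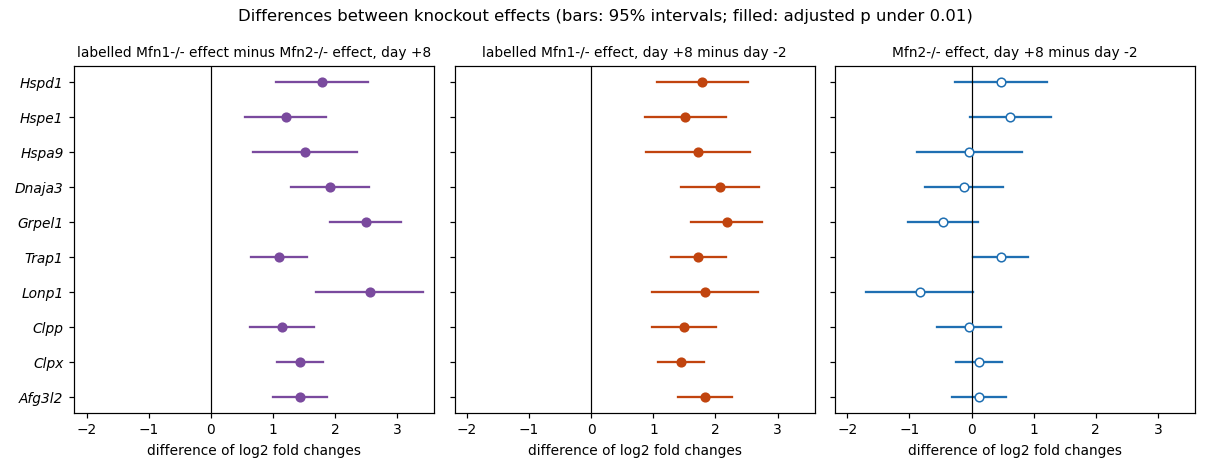
Differences between knockout effects for the 10 genes (log2, with 95% intervals from limma), the day +8 libraries of the Mfn1-/- line being named by their label; filled points have an adjusted p under 0.01. All 10 points are filled and above 0 in the left and middle panels, and none is filled in the right panel.

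Between days, each of the 10 genes passed as higher in Mfn1-/- MEFs at day +3, in the libraries labelled Mfn1-/- at day +8, or in both. Comparisons between days cross blocks that were scaled separately, so they used values rescaled by TMM. From day -2 to day 0 none of the 10 genes passed, where 0.112% of all genes did in limma; 0 had an unadjusted p under 0.05 and edgeR called 0. At day +3 against day 0, 7 genes were higher (8.71% of all genes): Hspd1, Hspe1, Dnaja3, Grpel1, Trap1, Clpp and Clpx. At day +8 against day +3, 8 genes were higher (17.4% of all genes), namely all but Hspd1 and Hspe1. All 10 were above every day 0 library at day +3, the other 3 short of the threshold. The share of all genes without overlap was not counted, so this count has no background. At day +8 against day -2 all 10 were higher (20.8% of all genes). Fitted on the 6 libraries alone, 8 of these were higher (13.3% of all genes), the calls on Hspa9 (adjusted p = 0.0255) and Lonp1 (0.0156) being lost.

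Hspd1 and Hspe1 passed at day +3 against day 0 and not at day +8 against day +3. In rescaled normalised counts Hspd1 read 4236, 5706 and 3963 at day -2, 3327, 3103 and 4533 at day 0 and 8369, 5979 and 14017 at day +3 in Mfn1-/- libraries A, B and C, and 14760.4, 14906 and 9487 at day +8 in the libraries labelled Mfn1-/-. The log2 fold change was 1.30 at day +3 against day 0 (adjusted p = 5.13e-04) and 0.52 at day +8 against day +3 (adjusted p = 0.0994). Library C at day +3 was close to libraries A and B at day +8, and without it the second difference passed (adjusted p = 0.00971). For Hspe1 the 2 values were 1.24 (adjusted p = 2.32e-04) and 0.27 (adjusted p = 0.355).

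Lonp1, Hspa9 and Afg3l2 did not pass at day +3 against day 0 and passed at day +8 against day +3. Lonp1 read 2286, 3003 and 3034 at day -2, 2563, 2634 and 2739 at day 0, 3009, 3415 and 2854 at day +3 and 28103, 14162 and 4865 at day +8. Its log2 fold change was 0.22 at day +3 against day 0 (adjusted p = 0.611) and 2.01 at day +8 against day +3 (adjusted p = 2.88e-06), the second value being 1.43 without library A of day +8 and 2.69 without library C. Afg3l2 was higher by 1.497 at day +8 against day +3 (adjusted p = 3.39e-09), after 0.23 at day +3 against day 0 (adjusted p = 0.257). Hspa9 was higher by 0.84 at day +3 against day 0 without passing (adjusted p = 0.0285, 0.43 on the authors' scale) and at day +8 against day +3 by 1.31 (adjusted p = 5.37e-04), a call that was lost without library A of day +8 (log2 fold change 0.86, adjusted p = 0.0126). Without library C it was 1.93. Dnaja3, Grpel1, Trap1, Clpp and Clpx passed as higher at both steps.

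These steps depend on the fit, on the scale and on single libraries. Fitted on the 6 libraries compared alone, 0 of the 10 genes passed at day +3 against day 0 (0.414% of all genes were higher) and 2, Grpel1 and Afg3l2, at day +8 against day +3 (5.5% of all genes). At day +3 against day 0 the count was 3 without library B of day 0 (Hspd1, Hspe1 and Trap1) and 4 without library A of day +3. The call on Dnaja3 was also lost without library A of day 0 or C of day +3, and that on Grpel1 without library A of day 0. Without library A of day +8 the count at day +8 against day +3 was 5, the calls on Hspa9, Trap1 (adjusted p = 0.0267) and Clpp (log2 fold change 0.43, adjusted p = 0.0408) being lost. On the authors' scale, which lowers the median of all genes by 0.39 (log2) at day +3 against day 0 in this line, Hspd1, Hspe1 and Trap1 were the 3 genes that still passed as higher, and at day +8 against day +3 the calls on Trap1 (adjusted p = 0.0193) and Clpp (0.0138) were lost. The calls on Trap1 and Clpp at day +8 against day +3 were also lost without library B of day +3 (adjusted p = 0.0211 and 0.0255).

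In WT libraries A to C, Trap1 was the 1 gene of the family that passed, in 1 of 4 comparisons between days. None of the 10 genes passed in limma at day 0 against day -2 (2.86% of all genes), at day +3 against day 0 (11.4%) or at day +8 against day +3 (6.18%). The numbers with an unadjusted p under 0.05 were 4, 4 and 2, and edgeR called 0, 1 and 0, the 1 being Hspe1. At day +8 against day -2 Trap1 was lower, where 7.29% of all genes were lower, at 1282, 1284 and 1414 rescaled counts at day +8 and 2072, 2229.7 and 1636 at day -2 (log2 fold change -0.57, SE 0.16, adjusted p = 0.00775). This call was lost in a fit on the 6 libraries alone (adjusted p = 0.0125) and without WT library A or B of day -2 or any 1 of the day +8 libraries (adjusted p up to 0.0615). Hspe1 came nearest to passing at day +3 against day 0, with a log2 fold change of 0.80 (adjusted p = 0.0127), and passed without WT library B of day +3 (adjusted p = 5.31e-04) and with the letter as a block (0.00938). Without that library Grpel1 and Trap1 passed as well, and Hspe1 passed as lower at day +8 against day +3 (log2 fold change -0.89, adjusted p = 0.00442). Trap1 passed as lower at day 0 against day -2 without WT library C of day -2 (adjusted p = 0.00562).

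The Mfn2-/- line and WT libraries D to F gave no passing change from day -2 to day +8 with the pooled spread. Over these days 0 of the 10 genes passed in the Mfn2-/- line in limma (17.6% of all genes), 0 had an unadjusted p under 0.05 and edgeR called 0, with log2 fold changes from 0.06 (Trap1) to 0.40 (Dnaja3). In WT libraries D to F 0 passed in limma (25.4% of all genes), 4 had an unadjusted p under 0.05 and edgeR called 0. The largest WT difference was in Lonp1, at 5539.5, 5295 and 6352 rescaled counts at day +8 and 2921, 3064 and 3273 at day -2, without overlap (log2 fold change 0.89, adjusted p = 0.019). The Mfn2-/- libraries read 2998, 2859 and 2937 for Lonp1 at day +8 and 2657, 2814 and 2791 at day -2. The lower Lonp1 of Mfn2-/- MEFs at day +8 thus stands beside a WT level that was higher at day +8 than at day -2 in all libraries, short of the threshold on rescaled counts and past it on the authors' scale (adjusted p = 0.00908). Fitted on the 6 libraries alone, 3 genes were higher at day +8 in Mfn2-/- MEFs (22.3% of all genes), namely Hspd1, Hspa9 and Dnaja3. In WT libraries D to F 5 were then higher (24.3% of all genes), namely Hspa9, Dnaja3, Grpel1, Lonp1 and Clpp, and Hspe1 was lower (30.3% of all genes). In this WT set Trap1 missed the threshold (log2 fold change -0.44, adjusted p = 0.0256) and passed without library F of day +8 (adjusted p = 0.00822). The 2 WT sets are of the same line.

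Ratios within a library do not depend on the scaling between libraries. Hspa9 over Dnaja3, mortalin to its J-protein in normalised counts, was 8.81, 10.8 and 8.05 in Mfn1-/- MEFs at day -2, against 17.0, 19.1 and 20.4 in WT, and 5.93, 5.62 and 4.51 in the libraries labelled Mfn1-/- at day +8, against 14.9, 14.58 and 12.7 in WT. It was 7.29, 6.32 and 7.42 in Mfn2-/- MEFs at day +8, against 13.7, 14.5 and 13.7 in WT. The groups did not overlap in any of the 6 pairs of a knockout and its WT, the knockout being lower each time. Hspa9 over Grpel1, the other cofactor, overlapped at day +3, at 4.85, 7.14 and 8.51 in Mfn1-/- MEFs, against 5.69, 11.6 and 12.7 in WT. In the other pairs of a knockout and its WT this ratio was also lower without overlap.

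The ratio of Hspd1 to Hspe1 was 3.96, 5.04 and 3.13 in the libraries labelled Mfn1-/- at day +8, against 4.33, 4.41 and 3.16 in WT, which overlap. It was lower than in WT without overlap in Mfn1-/- MEFs at day -2, with 3.19, 3.42 and 3.33, against 4.07, 3.97 and 3.86 in WT, and in Mfn2-/- MEFs at both days, with 2.39, 2.82 and 2.98 at day +8, against 4.09, 3.71 and 4.33 in WT. The ratio of Lonp1 to Clpp, 2 matrix protease subunits, was 13.8, 12.4 and 4.63 in libraries A, B and C labelled Mfn1-/- at day +8, against 6.81, 6.18 and 5.9 in WT, so that libraries A and B stood above WT and library C below. The same ratio in Mfn2-/- MEFs at day +8 was 3.84, 3.68 and 4.06, against 6.6, 7.05 and 7.33 in WT.

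Over the 12 group means (log2 of rescaled counts) the 10 genes followed a common profile to different degrees. These correlations are descriptions over groups that share lines and days. Each gene's Pearson r with the mean of the 10 ran from 0.721 (Hspa9) to 0.990 (Clpx), and without the day +8 group labelled Mfn1-/- from 0.533 (Lonp1) to 0.972 (Clpx). Hspd1 and Hspe1 were each other's closest member with and without that group (r = 0.948 and 0.939). So were Hspa9 and Afg3l2 (r = 0.891 and 0.889), the 2 genes that were lower in both knockout lines at day -2. Dnaja3 and Grpel1, the mortalin cofactors, were closest to each other over all 12 groups (r = 0.974). Hspe1 and Hspa9 were least alike (r = 0.202). For all 10 genes the highest group mean was that of the libraries labelled Mfn1-/- at day +8.

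The 5 genes outside the family whose profile was most like the mean of the 10 were Mrps5 (r = 0.979), Atp5b (0.978), Pdhx (0.973), Cisd1 (0.972) and Ndufa12 (0.971), over 12 group means. They encode a mitochondrial ribosomal protein, an ATP synthase subunit, a component of the pyruvate dehydrogenase complex, an outer membrane iron-sulphur protein and a complex I subunit. Over the 11 groups without the day +8 group labelled Mfn1-/-, their r with the same mean was 0.919 to 0.958.

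Among 26 other genes of mitochondrial folding and proteolysis, 19 were higher and 0 lower in the libraries labelled Mfn1-/- at day +8 (23.5% of all genes were higher), with a median log2 fold change of 1.10. Means below are normalised counts ± SD (n = 3 each). Dnajc15, a J-protein of the import motor, averaged 1119.8 ± 397 against 186 ± 39.0 in WT (log2 fold change 2.54, adjusted p = 7.93e-12), and Immp2l, a subunit of the inner membrane peptidase, averaged 191 ± 49.4 against 44.0 ± 21.6 in WT (log2 fold change 2.17, adjusted p = 4.03e-07). Dnajc15 was higher than WT in the Mfn1-/- line from the start, with 390.4 ± 15.5 against 222 ± 34.9 in WT (log2 fold change 0.82, adjusted p = 0.0021) at day -2. Bcs1l, the AAA protein that inserts the Rieske subunit of complex III, was likewise higher in Mfn1-/- MEFs at day -2 (328 ± 27.1 against 197 ± 21.5 in WT, log2 fold change 0.74, adjusted p = 1.61e-04). The list had 2 higher and 2 lower at day -2, 2 and 1 at day 0 and 6 and 0 at day +3 in this line. Of all genes, 12.5% were higher and 9.98% lower at day -2, 10.7% and 10.8% at day 0 and 10.6% and 10.8% at day +3.

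Grpel2, the second nucleotide exchange factor of mortalin, is given here beside Grpel1. It averaged 373 ± 36.1 against 620.5 ± 40.9 in WT (log2 fold change -0.74, adjusted p = 2.29e-04) in Mfn1-/- MEFs at day -2, and 464 ± 58.2 against 675 ± 52.0 in WT (log2 fold change -0.54, adjusted p = 0.00495) at day 0. At day +8 it did not pass in the libraries labelled Mfn1-/- (log2 fold change 0.21, adjusted p = 0.223). It was lower in Mfn2-/- MEFs at both days, with 241 ± 33.9 against 391 ± 21.7 in WT (log2 fold change -0.71, adjusted p = 2.07e-04) at day -2 and 259 ± 21.7 against 357 ± 20.7 in WT (log2 fold change -0.47, adjusted p = 0.00982) at day +8. Htra2, a protease of the intermembrane space, was lower at day -2 in Mfn1-/- MEFs (648 ± 47.3 against 1071 ± 80.8 in WT, log2 fold change -0.72, adjusted p = 9.61e-04) and in Mfn2-/- MEFs (701 ± 60.9 against 1012 ± 50.5 in WT, log2 fold change -0.53, adjusted p = 0.00877).

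The same list of 26 had, in Mfn2-/- MEFs, 2 higher and 3 lower at day -2, and 5 higher and 2 lower at day +8 (median log2 fold change 0.17). Of all genes, 16.4% were higher and 19.1% lower at day -2, and 17.1% and 21.0% at day +8. Stoml2, a scaffold protein of the inner membrane, averaged 1635 ± 75.3 against 925 ± 38.9 in WT (log2 fold change 0.82, adjusted p = 5.44e-05) at day +8, and Dnajc15 averaged 314 ± 16.5 against 176 ± 34.9 in WT (log2 fold change 0.85, adjusted p = 8.15e-04). Pitrm1, the presequence-degrading peptidase, averaged 1144 ± 97.4 against 1747 ± 126 in WT (log2 fold change -0.61, adjusted p = 3.34e-04). At day -2, Mipep, which trims imported precursors, averaged 313 ± 21.1 against 184 ± 28.6 in WT (log2 fold change 0.77, adjusted p = 4.42e-04), and Bcs1l averaged 164 ± 3.11 against 88.5 ± 17.2 in WT (log2 fold change 0.90, adjusted p = 5.06e-06).

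Beyond chaperones and proteases, all 15 genes of mitochondrial content were higher in the libraries labelled Mfn1-/- at day +8, where 23.5% of all genes were. Their median log2 fold change was 1.66, against 1.48 for the 10 genes and -0.07 for all genes. Of all genes, 10.6% were higher in Mfn1-/- MEFs at day +3, and 17.1% were higher and 21.0% lower in Mfn2-/- MEFs at day +8. Idh3a, a subunit of isocitrate dehydrogenase, averaged 13222 ± 2415 against 1828 ± 228 in WT (log2 fold change 2.84, adjusted p = 2.07e-12), and Cycs, cytochrome c, averaged 5119.9 ± 2574 against 682 ± 209 in WT (log2 fold change 2.83, adjusted p = 6.67e-08). Of the 15, 3 were higher in Mfn2-/- MEFs at day +8, Vdac2 (4432 ± 155 against 1927 ± 94.9 in WT, log2 fold change 1.20, adjusted p = 2.34e-11) and Tfam (1029 ± 39.3 against 696 ± 9.91 in WT, log2 fold change 0.56, adjusted p = 1.62e-04) among them, and 4 were lower, with Idh3a at 876 ± 104 against 2599 ± 577 in WT (log2 fold change -1.55, adjusted p = 3.47e-07) and Cycs at 1148 ± 148 against 2766 ± 806 in WT (log2 fold change -1.24, adjusted p = 0.00397). In Mfn1-/- MEFs at day +3, 6 of the 15 were higher, led by Idh3a (3558 ± 1499 against 1523 ± 455 in WT, log2 fold change 1.17, adjusted p = 5.81e-05) and Uqcrc2, a core subunit of complex III (2587 ± 467 against 1469 ± 309 in WT, log2 fold change 0.82, adjusted p = 4.96e-05).

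**Figure D5:**
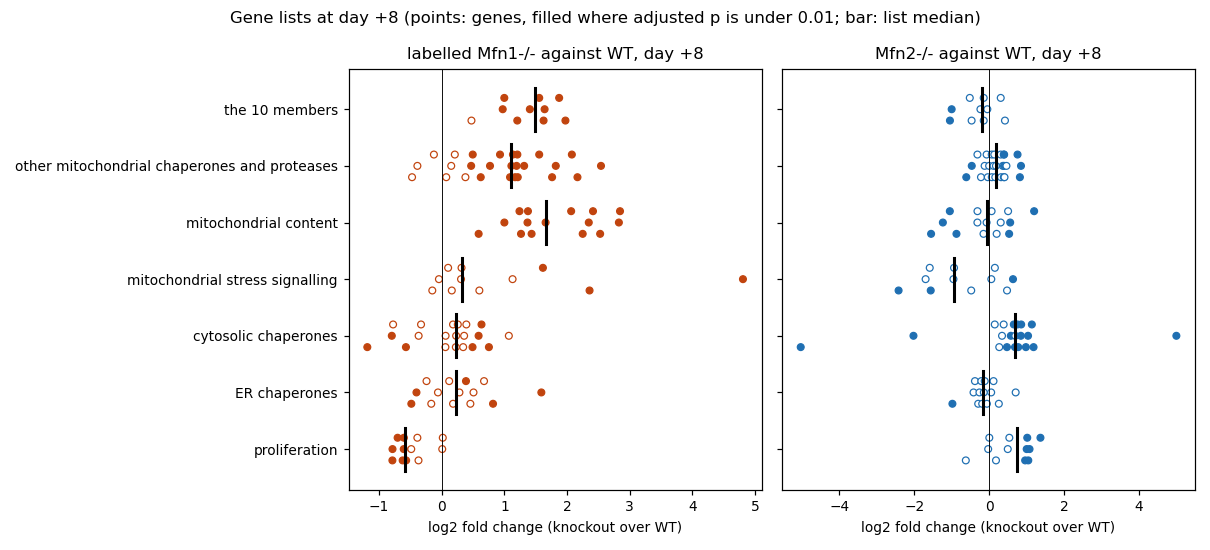
Log2 fold changes at day +8 for the 10 genes and 6 lists in the libraries labelled Mfn1-/- (left) and Mfn2-/- MEFs (right) against WT; points are genes, filled where the adjusted p is under 0.01, and bars are list medians. On the left the mitochondrial lists lie mostly to the right of 0 and the cytosolic and ER chaperones around it; on the right the 10 genes lie around or below 0 and most cytosolic chaperones above it.

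Chaperones of other compartments were read beside the family. In the libraries labelled Mfn1-/- at day +8, 23.5% of all genes were higher and 26.7% lower. Of 20 cytosolic chaperone genes, 4 were higher and 3 lower in the libraries labelled Mfn1-/- at day +8 (median log2 fold change 0.23). Cct4, a subunit of the cytosolic chaperonin, averaged 4582 ± 355 against 2726 ± 328 in WT (log2 fold change 0.75, adjusted p = 3.31e-04), and Dnajb1, a J-protein of the heat shock response, averaged 1715 ± 333 against 1092 ± 98.0 in WT (log2 fold change 0.63, adjusted p = 3.57e-05), while Hsph1, an Hsp110-type exchange factor, averaged 398 ± 65.7 against 902 ± 82.8 in WT (log2 fold change -1.19, adjusted p = 0.0026) and Hsp90aa1, the stress-inducible Hsp90, 3593 ± 711 against 6186 ± 666 in WT (log2 fold change -0.80, adjusted p = 4.52e-04). Of 14 ER chaperone genes 3 were higher and 2 lower (median 0.23), with Sdf2l1 at 325 ± 132 against 104 ± 24.0 in WT (log2 fold change 1.59, adjusted p = 9.73e-06), Manf at 1705 ± 574 against 944 ± 171 in WT (log2 fold change 0.82, adjusted p = 7.98e-04), Dnajc3 at 894 ± 188 against 1239.6 ± 162 in WT (log2 fold change -0.48, adjusted p = 5.07e-04) and Canx, calnexin, at 5048 ± 719 against 6633 ± 168 in WT (log2 fold change -0.40, adjusted p = 0.0012).

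Among Mfn2-/- libraries at day +8 the cytosolic list had 13 of 20 higher and 2 lower (median log2 fold change 0.69, all genes -0.03). Of all genes, 17.1% were higher and 21.0% lower. Hspb1, a small heat shock protein, averaged 2409 ± 380.4 against 74.9 ± 18.0 in WT (log2 fold change 5.00, adjusted p = 3.47e-12) and Hsp90ab1, the constitutive Hsp90, 40929 ± 3460.5 against 17946 ± 332 in WT (log2 fold change 1.19, adjusted p = 3.06e-07), while the inducible Hspa1b averaged 103 ± 21.0 against 418 ± 22.3 in WT (log2 fold change -2.02, adjusted p = 4.66e-07). Hspa1b was lower in the Mfn1-/- line too at day -2 (76.0 ± 4.67 against 398 ± 67.5 in WT, log2 fold change -2.36, adjusted p = 6.43e-08), day 0 (119 ± 26.9 against 379 ± 50.1 in WT, log2 fold change -1.68, adjusted p = 1.93e-05) and day +3 (91.5 ± 26.2 against 229 ± 36.5 in WT, log2 fold change -1.35, adjusted p = 3.46e-04), and in Mfn2-/- MEFs at day -2 (45.0 ± 2.51 against 859.7 ± 232 in WT, log2 fold change -4.20, adjusted p = 7.49e-14). Reads of Hspa1b and its near-identical neighbour Hspa1a can be misassigned. Bag3, a co-chaperone of Hsp70, was higher in Mfn1-/- MEFs at day -2 (1683 ± 208 against 972 ± 40.1 in WT, log2 fold change 0.78, adjusted p = 2.30e-07), day 0 (1823 ± 110.3 against 1084 ± 23.8 in WT, log2 fold change 0.75, adjusted p = 5.46e-07) and day +3 (961 ± 46.5 against 746 ± 53.1 in WT, log2 fold change 0.37, adjusted p = 0.00512). Of the ER genes in Mfn2-/- MEFs, Sdf2l1 was higher at day -2 (355 ± 51.9 against 104 ± 16.3 in WT, log2 fold change 1.76, adjusted p = 2.86e-06) and Dnajb9 lower at day +8 (169 ± 15.4 against 334 ± 28.8 in WT, log2 fold change -0.98, adjusted p = 0.00172).

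Genes of the mitochondrial and integrated stress responses were read as a separate list of 11. In the libraries labelled Mfn1-/- at day +8, 3 were higher and 0 lower (median log2 fold change 0.32), where 23.5% and 26.7% of all genes were. Gdf15, a secreted stress cytokine, averaged 266 ± 270.4 against 3.19 ± 2.08 in WT (log2 fold change 4.81, adjusted p = 1.20e-05), Fgf21, a secreted hormone, averaged 149 ± 91.5 against 27.6 ± 17.9 in WT (log2 fold change 2.36, adjusted p = 0.00425), and Cebpb, a transcription factor that also acts in adipogenesis, averaged 783 ± 384 against 236 ± 28.8 in WT (log2 fold change 1.61, adjusted p = 1.31e-07). The regulators Atf4 and Atf5 did not pass, with log2 fold changes of 0.32 (adjusted p = 0.278) and 0.16 (adjusted p = 0.714). Their libraries were split around WT. Atf4 was at 2.02, 1.45 and 0.651 times the WT mean in libraries A, B and C, and Atf5 at 2.56, 1.27 and 0.426 times. In library A the Gdf15 level was 65.9 times that in library C. Atf5 averaged 497 ± 90.5 against 2639 ± 168 in WT (log2 fold change -2.42, adjusted p = 2.19e-06) in Mfn2-/- MEFs at day +8, where Ddit3 averaged 516 ± 24.8 against 1523 ± 37.3 in WT (log2 fold change -1.56, adjusted p = 0.00483) and Hsf1, the heat shock regulator, 859 ± 83.8 against 550.4 ± 16.7 in WT (log2 fold change 0.64, adjusted p = 4.29e-04). Ddit3 is one of 19 symbols repeated in the table in identical lines, which were merged. At day -2 in Mfn2-/- MEFs, Atf5 averaged 297 ± 21.0 against 878 ± 182 in WT (log2 fold change -1.54, adjusted p = 7.52e-04) and Dele1, which relays mitochondrial stress to the integrated stress response, 327 ± 29.6 against 468 ± 48.1 in WT (log2 fold change -0.51, adjusted p = 0.00637).

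Of 12 proliferation genes, 7 were lower (26.7% of all genes) and 0 higher in the libraries labelled Mfn1-/- at day +8 (median log2 fold change -0.59). Bub1 was at 527 ± 155 against 889 ± 100.6 in WT (log2 fold change -0.79, adjusted p = 0.00109). In Mfn2-/- MEFs at day +8, 6 were higher (17.1% of all genes) and 0 lower (median 0.75), with Birc5 at 1963 ± 17.0 against 759 ± 38.8 in WT (log2 fold change 1.37, adjusted p = 3.41e-08). At day -2, 3 of 12 were lower in Mfn1-/- MEFs (9.98% of all genes), with Ccna2 at 3318 ± 268 against 5135 ± 804 in WT (log2 fold change -0.62, adjusted p = 0.00264), and 0 passed in Mfn2-/- MEFs.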

How the data were processed

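Poly(A) RNA of mouse embryonic fibroblast lines was sequenced as paired-end libraries, and the submitters' processing notes name cutadapt, STAR, featureCounts and SAMtools and the GRCm38 build, with versions not given in the sources used here. The deposited signal values are counts per gene that the authors divided by 1 factor per library, separately in 6 blocks of 6 libraries. Dividing each library by its smallest step gave whole reads for 100% of values (tolerance 0.01). Identical lines of 19 symbols were merged, leaving 14761 genes, of which 99.77% matched the GENCODE annotation of GRCm38.

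Genes with a value of at least 10 in at least 3 libraries (14293, all 10 of the family among them) were tested with limma 3.58.1 in R 4.3.3, with trend and robust variance, on log2(value + 1), in 1 model of 12 group means. Fold changes are on that scale, which understates changes of low genes, and p-values were adjusted by Benjamini-Hochberg over all genes, with a threshold of 0.01. Knockouts were compared with WT of the same block on the authors' scale, and days on values rescaled by TMM (edgeR 4.0.16). Alternatives were edgeR and DESeq2 1.42.0 on the recovered reads, other pseudocounts and filters, the scale of the authors between days, only the libraries of a comparison, all 6 WT libraries, each library left out, and the replicate letter as a block. The fits were tested on simulated data with known changes at day +8 in the Mfn1-/- group. With limma, 0 of 67 genes changed 1.5-fold were recovered, 27 of 67 changed 2-fold and 65 of 66 changed 4-fold. Of 14093 unchanged genes, 1 was called. Genes that changed 2-fold or less can thus fail to pass. Every simulated gene had the same dispersion, so these shares need not carry over to the data.

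The Mfn2-/- columns are lettered A, B and C but the sample titles D, E and F, and these columns were assigned to their group without a replicate. Same-lettered libraries of Mfn1-/- MEFs and WT deviated together from their group means most closely at day +3 (r = 0.304, 0.423 and 0.538). At day +8 r was 0.197, 0.185 and 0.285, at day -2 0.042, 0.199 and 0.22, and at day 0 0.101, 0.067 and 0.161. No limit was set for r, and libraries of different letters were not compared. Pairing is not stated by the labels, and these values do not settle at which days libraries were paired. A block within the day was added after the data were seen. The submitters call the 3 libraries of a group independent biological replicates. In the main tests the p-values rest on the spread between such libraries within groups, pooled over all 12 groups. With 1 line per genotype they do not measure the spread between lines.

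The members and the gene lists were chosen with earlier results of these data known. Genes named outside the family are, for each list and comparison, those with the largest change among those that passed, where the group with more RNA averaged 100 or above (2 in each direction, of which the text gives a part), and the 5 most alike in profile. Cebpb, Atf4, Atf5 and Grpel2 at day +8 in the libraries labelled Mfn1-/- were added after their values were seen. Depth ran from 8800674 to 37011894 reads per library.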

Additional observations from a re-analysis of the deposited data

Results flagged for a closer look

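In each of the 10 genes, the knockout effect differed between the 2 lines or between 2 days by the test of the difference itself in limma. The effect in the libraries labelled Mfn1-/- minus that in Mfn2-/- MEFs at day +8, each against its WT, was 1.79 for Hspd1, 1.20 for Hspe1, 1.52 for Hspa9, 1.92 for Dnaja3, 2.49 for Grpel1, 1.10 for Trap1, 2.56 for Lonp1, 1.14 for Clpp, 1.44 for Clpx and 1.44 for Afg3l2 (log2). The difference from WT in the libraries labelled Mfn1-/- at day +8 minus that in Mfn1-/- MEFs at day -2 was 1.79 for Hspd1, 1.52 for Hspe1, 1.72 for Hspa9, 2.08 for Dnaja3, 2.18 for Grpel1, 1.72 for Trap1, 1.83 for Lonp1, 1.49 for Clpp, 1.45 for Clpx and 1.83 for Afg3l2 (log2). Both sets rest on the 3 libraries labelled Mfn1-/- at day +8, in which Mfn1 RNA was at the WT level. Whether a single library stood apart was not tested in these groups of 3.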

How the results depend on the processing

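Across 2700 settings of a single gene, no called difference changed sign: 2567 kept their side of the threshold, 80 lost a call and 53 gained one. The 9 higher genes at day +8 in the libraries labelled Mfn1-/- numbered 9 or 10 with any 1 library left out, and the 10 differences from the Mfn2-/- effect at day +8 numbered 9 to 10.

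Of the 10 genes, the number that passed moved as follows, and the cause was not tested. With only the libraries of the comparison it was 2 for Mfn1-/- against WT at day 0 (1 with all libraries), 0 at day +3 (2), 5 for Mfn2-/- against WT at day -2 and 5 at day +8 (2 each), and 5 for the change of the Mfn2-/- effect between the days (0). Between days it was, with only the libraries compared, 0 for Mfn1-/- at day +3 against day 0 (7), 2 at day +8, by label, against day +3 (8), 1 for WT libraries A to C at day 0 against day -2 (0) and 0 at day +8 against day -2 (1), 3 for Mfn2-/- at day +8 against day -2 (0) and 6 for WT libraries D to F (0). DESeq2 gave 2 for Mfn1-/- at day 0, 0 at day +3, 4 for Mfn2-/- at day -2 and 5 at day +8. edgeR gave 1 for WT libraries A to C at day +3 against day 0. With all 6 WT libraries rescaled by TMM, 5 passed for Mfn1-/- at day -2. On the scale of the authors between days, 3 passed for Mfn1-/- at day +3 against day 0 and 1 for WT libraries D to F.

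With each library left out in turn, the number ran from 0 to 1 for Mfn1-/- at day 0, 0 to 3 at day +3, 1 to 1 for Mfn2-/- at day -2 and 0 to 1 at day +8. It ran from 3 to 7 for Mfn1-/- at day +3 against day 0 and 5 to 9 at day +8 against day +3. In WT libraries A to C it ran from 0 to 1 at day 0 against day -2, 0 to 3 at day +3 against day 0, 0 to 1 at day +8 against day +3 and 0 to 1 at day +8 against day -2, and in WT libraries D to F from 0 to 1.

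With the letter as a replicate block within the day, 4 genes passed at day +3 in Mfn1-/- MEFs, and the block changed no call at day -2, 0 or +8. The r of same-lettered libraries was 0.042, 0.199 and 0.22 at day -2 and 0.101, 0.067 and 0.161 at day 0. A replicate block over all days gave 1 passing gene in WT libraries A to C at day +3 against day 0 (Hspe1) and changed no other call. No paired analysis was possible for Mfn2-/- against WT because the column letters of the Mfn2-/- libraries differ from their labels.

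Counts over all genes moved too. With only the libraries compared they were 798 for Mfn1-/- at day +3 (3066 with all libraries), 4188 at day +8 (7171), 7743 for Mfn2-/- at day -2 (5079), 2272 and 5379 for the change of the Mfn1-/- and Mfn2-/- effects (3823 and 2216), 4, 330, 893 and 3194 for the day comparisons of Mfn1-/- (16, 2534, 4854 and 6172), 421 and 70 for WT libraries A to C at day +3 against day 0 and day +8 against day +3 (1625 and 883), 5392 for Mfn2-/- (2515) and 6951 for WT libraries D to F (3625). DESeq2 gave 1651 for Mfn1-/- at day +3. For Mfn1-/- at day 0 against day -2, a pseudocount of 5 gave 25, the block 33, the scale of the authors 544 and a library left out 0 to 113. On the scale of the authors the counts were 4520 for Mfn1-/- at day +3 against day 0 and 1694, 4123, 1823 and 3920 for WT libraries A to C (409, 1625, 883 and 2191). With 1 library left out they ran from 1080 to 3086 for Mfn1-/- at day +3 against day 0, and for WT libraries A to C from 120 to 634, 948 to 2353, 326 to 1926 and 1197 to 2300.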
